A study of Homo sapiens with 4 samples.

Results

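The genes described here encode 9 components and regulators of the complement system, measured in U87MG cells, an established human glioblastoma line. They were chosen by name, as every probe set whose platform gene symbol is exactly CFI, CFB, C3, C1R, C1S, CD46, CD55, CD59 or SERPING1. This gave 37 of the 49293 probe sets tested, which carry 18132 genes on probe sets with a single symbol. RNA was read on 4 human PrimeView arrays. 2 came from cells given a control vector, labelled PCMV, and 2 from cells given a NeuroD2 expression vector, all harvested 48 hours after transfection. Every culture was kept at 0.2% oxygen in medium with serum, so no array shows these genes at ordinary oxygen. The labels call the arrays biological replicates without saying how the cultures were separated, so the p-values measure the spread between these samples. They give no share of cells that took up the vector, and the RNA is from the whole culture, so fewer cells of a kind and less RNA per cell cannot be told apart.

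Complement is a set of plasma and cell-surface proteins that cleave one another in a cascade. The classical pathway starts when C1q binds its target and activates the proteases C1r and C1s, which SERPING1, the C1 inhibitor, blocks. All routes meet at C3, whose fragment C3b attaches to surfaces and, with factor B (CFB), forms the convertase of the alternative pathway. Factor I (CFI) is the protease that cuts C3b into inactive forms, and it needs a cofactor such as CD46. CD55 speeds the decay of convertases, and CD59 stops the last step, the membrane attack complex. The liver makes most plasma complement, but astrocytes, microglia and many tumour lines also transcribe these genes, and C3 and CFB respond to inflammatory cytokines.

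Of the 37 probe sets, 1 rose and 2 fell at an adjusted p below 0.05 with the NeuroD2 vector, and 34 did not pass (limma, Benjamini-Hochberg over all probe sets). Across the array 2.87% of probe sets were called, 1.26% higher and 1.61% lower. The called probe sets were the single one of C3, which rose, and both of CFI, which fell. The groups did not overlap in 23 of the 37, against 49.3% of all probe sets, and 15 of the 37 had an unadjusted p below 0.05, against 19.7%. The median difference of the 37 was -0.05 on the log2 scale, against 0.01 for all probe sets. Leaving out 1 array leaves 1 array in a group, so for these fits only the differences are given gene by gene. With a control array left out, the single remaining control is assumed to vary like the NeuroD2 arrays, so the residual spread comes from those arrays alone.

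**Figure D1:**
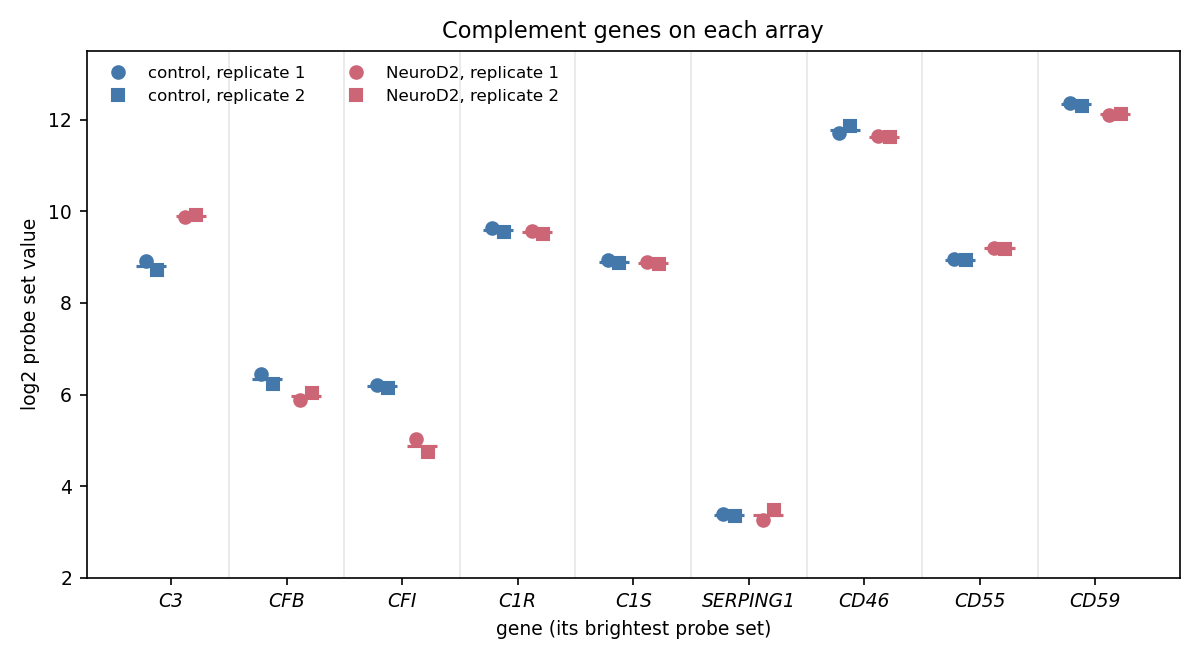
Log2 probe set value on each array for the brightest probe set of the 9 genes, with controls in blue, NeuroD2 arrays in red, circles for replicate 1, squares for replicate 2 and short lines for group means. C3 sits at 8.71 to 8.90 in the controls and 9.87 to 9.91 with NeuroD2, CFI drops from above 6.1 to 5.02 and 4.75, and SERPING1 lies below 3.5 on every array.

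C3, the central component, had 1 probe set (11715393_a_at). It read 8.90 and 8.71 on the control arrays and 9.87 and 9.91 on the NeuroD2 arrays (log2 values). Both NeuroD2 arrays were above both controls, by more than the gap within either group. The mean rose from 8.81 ± 0.14 to 9.89 ± 0.03 (SD, n = 2 each), a log2 difference of 1.08 with a standard error of 0.09 and a 95% interval of 0.85 to 1.31. NeuroD2 arrays were thus 2.11-fold above controls (limma, adjusted p = 0.0115). With each array left out in turn, the C3 difference stayed between 0.98 and 1.18.

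CFI, the protease that inactivates C3b, fell on both of its probe sets. The brighter (11718481_s_at) read 6.22 and 6.15 on the control arrays and 5.02 and 4.75 on the NeuroD2 arrays. The second (11753068_a_at) read 6.11 and 6.14, then 4.73 and 4.84. On each, every NeuroD2 value was more than 1 log2 unit below every control value. The mean of the brighter fell from 6.18 ± 0.05 to 4.89 ± 0.19 (SD, n = 2 each), a difference of -1.30 with a standard error of 0.11 (adjusted p = 0.0106 by limma). The second differed by -1.35 with a standard error of 0.08 (adjusted p = 0.00466 by limma). Controls were thus 2.46-fold and 2.54-fold above the NeuroD2 arrays. The brighter probe set is of the s_at kind, which can match transcripts of more than 1 gene, and the second is of the a_at kind, which is meant to match transcripts of a single gene. With each array left out in turn, the direction held on both probe sets, with differences from -1.43 to -1.16.

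As C3 rose and its inactivating protease fell, the gap between the 2 signals was also taken on each array. The log2 value of C3 minus that of CFI, on their brightest probe sets, was 2.69 and 2.56 in the controls and 4.85 and 5.15 with NeuroD2. The gap widened by 2.38, a 5.20-fold change of the ratio of these signals. This change combines the C3 and CFI differences given above and adds no separate measurement. Gaps of 4 gene pairs were compared in this way, with the pairs chosen after their values were seen. For each the exact two-sided permutation test gave p = 0.333, the smallest that 2 arrays against 2 allow, and the value adjusted over the 4 was the same. The size of such a gap on any array has no meaning as an amount, because probe sets differ in brightness. Its change between arrays can also depend on the probe sets used. IL6, for example, differed by 1.37 on its brightest probe set and by 0.01 on its dimmer probe set.

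CFB, the gene of factor B, had 4 probe sets that did not move together, and none passed. The brightest read 6.44 and 6.24 on the control arrays and 5.87 and 6.04 with NeuroD2. The groups did not overlap, as was so for 49.3% of all probe sets, and the difference was -0.38 (95% interval -0.65 to -0.12, adjusted p = 0.129 by limma). The dimmest went the other way, from 4.05 ± 0.06 to 4.37 ± 0.10 (SD, n = 2 each), a difference of 0.32 (adjusted p = 0.129 by limma). The remaining 2, at mean levels of 5.08 and 4.41, differed by -0.21 and -0.18 with overlapping groups. Averaged over the 4 probe sets, CFB differed by -0.11. When probe sets below the median level were left out, the brightest passed (adjusted p = 0.0484 by limma), with fewer probe sets tested.

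Promoter windows from RefSeq (GRCh38.p14) were available for 6 of the 9 genes: CFI, CFB, C1R, CD46, CD55 and CD59. The 250 bases before the start are shown for CFI, the gene with the largest difference, and for CFB, which joins C3b in the alternative pathway convertase, read 5′ to 3′ on the gene's strand. NeuroD2 and its relatives are known to bind E-boxes, so the motif CANNTG, which reads the same on both strands, is in capitals.
CFI, chr4:109802000-109802249, minus strand: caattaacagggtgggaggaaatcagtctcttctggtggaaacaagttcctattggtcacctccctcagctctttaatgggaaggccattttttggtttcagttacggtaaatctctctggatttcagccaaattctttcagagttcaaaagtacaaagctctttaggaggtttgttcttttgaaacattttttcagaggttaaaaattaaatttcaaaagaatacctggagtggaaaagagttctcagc
CFB, chr6:31945845-31946094, plus strand: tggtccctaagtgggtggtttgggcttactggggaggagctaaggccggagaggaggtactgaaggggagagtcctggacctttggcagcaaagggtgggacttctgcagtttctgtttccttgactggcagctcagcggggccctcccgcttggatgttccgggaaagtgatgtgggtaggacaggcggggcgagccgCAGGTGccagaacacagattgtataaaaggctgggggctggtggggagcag
The CFI window holds no CANNTG, and the CFB window holds a single CAGGTG that begins 51 bases before the start. CANNTG is common and was present in 61.8% of 35116 windows of this length. Among 11 windows of the 6 genes, some genes having several starts, it was in 5, from CFB, C1R and CD59. The variant CAGATG, searched on both strands and contained in CANNTG, was in 1 of the 11 (C1R) and in 12.2% of all windows. CAGCTG, another form of CANNTG, was in 0 of the 11 and in 14.0% of all. TTGCNNAA, a form of the C/EBP motif searched on both strands, was in 3 of the 11, from C1R and CD59, and in 9.05% of all. TGANTCA, the AP-1 motif read on both strands, was in 1 of the 11 (CD59) and in 6.57% of all. A match describes letters in a window and was not tested as a site.

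The classical pathway proteases were bright and showed no detectable difference. C1R read 9.64 and 9.54 on the control arrays and 9.58 and 9.51 on the NeuroD2 arrays on its brightest of 3 probe sets, so the groups overlapped. On the other 2 they did not, as was so for 49.3% of all probe sets. Its 3 differences ran from -0.11 to -0.04, with 95% intervals lying between -0.30 and 0.16 and adjusted p-values from 0.490 to 0.836 by limma. C1S, which lies beside C1R in the genome and encodes the protease that C1r activates, read 8.92 and 8.87, then 8.89 and 8.84, a difference of -0.03 (95% interval -0.22 to 0.16, adjusted p = 0.885 by limma). These intervals exclude a change of the size measured for C3. The only C1S probe set is of the s_at kind, as is the brighter of CFI. The gap between C3 and C1S went from -0.02 and -0.16 in the controls to 0.98 and 1.06 with NeuroD2, a change of 1.11 (exact two-sided permutation p = 0.333, the smallest possible).

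SERPING1, the C1 inhibitor, was close to the bottom of the array's scale. Its 2 probe sets read between 3.16 and 3.48 on all arrays, at percentiles 4.19 and 7.46 of the mean levels of all probe sets. The brighter read 3.39 and 3.35 on the control arrays and 3.26 and 3.48 with NeuroD2, so the groups overlapped, and the differences were under 0.03 in size, with a lowest adjusted p of 0.896 by limma. No detection calls were used, so the gene cannot be called absent, and a difference near this floor may not be measurable.

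**Figure D2:**
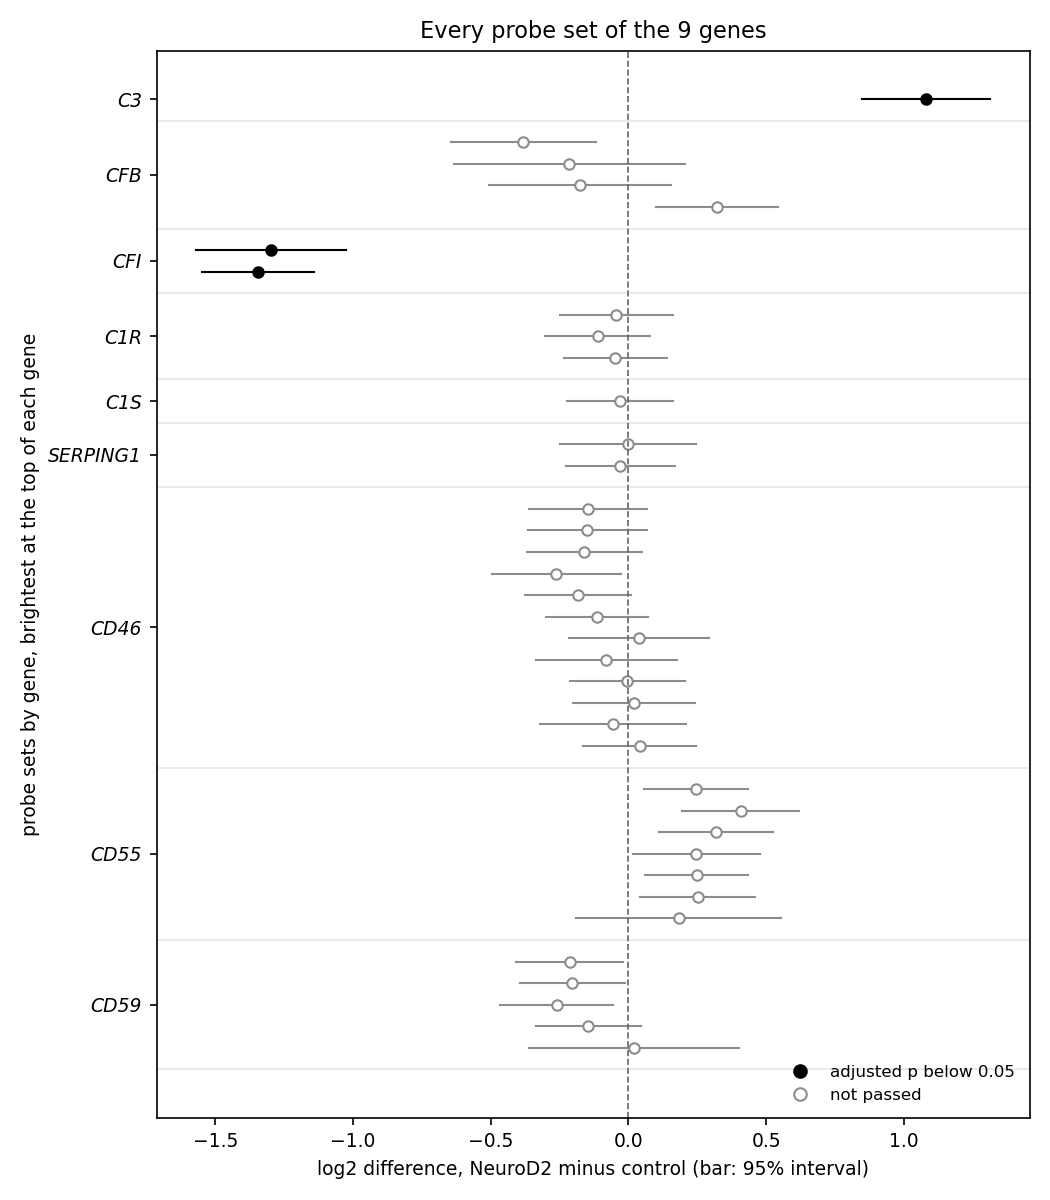
Log2 difference, NeuroD2 minus control, with its 95% interval from limma for each of the 37 probe sets, grouped by gene with the brightest at the top of each group; filled points passed an adjusted p of 0.05. C3 at 1.08 and CFI at -1.30 and -1.35 stand away from zero, all 7 CD55 points lie above it, and 4 of 5 CD59 points and 9 of 12 CD46 points lie below it.

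The membrane regulators showed smaller differences, and 0 of their 24 probe sets passed by limma. An unadjusted p below 0.05 was reached by 10 of the 24, against 19.7% of all probe sets. CD55, the decay accelerator, differed upward on all 7 probe sets, by 0.18 to 0.41. Its brightest read 8.96 and 8.93 on the control arrays and 9.20 and 9.18 with NeuroD2. The groups did not overlap on this probe set or on 5 of the other 6, as was so for 49.3% of all probe sets. The difference there was 0.25 with a standard error of 0.08 (95% interval 0.06 to 0.43, adjusted p = 0.157 by limma). The largest CD55 difference was on the second-brightest probe set, which read 8.71 and 8.81, then 9.12 and 9.22 (difference 0.41, standard error 0.09, adjusted p = 0.0717 by limma). It passed with an intensity trend in the variance prior (adjusted p = 0.0148) and when dim probe sets were left out (0.0202), and a further CD55 probe set passed under both (difference 0.32; 0.0378 and 0.0365). The dimmest CD55 probe set, near 3.66, had overlapping groups. Probe sets of a gene share transcripts and arrays, so the 7 are not independent measurements.

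CD59, the inhibitor of the membrane attack complex, differed downward on 4 of 5 probe sets. Its brightest read 12.37 and 12.29 on the control arrays and 12.10 and 12.13 with NeuroD2, without overlap, as was so for 49.3% of all probe sets. The difference was -0.21 (95% interval -0.41 to -0.02, adjusted p = 0.215 by limma). The next 2 in level differed by -0.20 and -0.26. These 3 passed with an intensity trend (adjusted p between 0.0322 and 0.0399). The fourth differed by -0.15, and the dimmest, near 4.20, by 0.02 with overlapping groups. The brightest CD59 probe set and the next in level are of the s_at kind.

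CD46, the cofactor for factor I on the cell's own surface, had 12 probe sets and no consistent difference across them. Its brightest read 11.70 and 11.85 on the control arrays and 11.65 and 11.61 with NeuroD2, a difference of -0.15 (95% interval -0.36 to 0.07, adjusted p = 0.417 by limma). The 6 brightest probe sets all lay below zero, from -0.26 to -0.11, with groups that did not overlap, against 49.3% of all probe sets. The 6 dimmer ones ran from -0.08 to 0.04, all with overlapping groups. This split by level was made after the values were seen. CD46 is spliced into many forms and 6 of its probe sets are of the x_at kind, in which some probes can match other transcripts.

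CD55 and CD46 lie in the same cluster of regulator genes on chromosome 1 and differed in opposite directions on their brightest probe sets. The gap of CD55 minus CD46 was -2.75 and -2.92 in the controls and -2.45 and -2.43 with NeuroD2, a change of 0.39. CD55 minus CD59 went from -3.41 and -3.36 to -2.90 and -2.95, a change of 0.46. In both gaps the exact two-sided permutation p was 0.333, the smallest possible. Both pairs were chosen after their values were seen. The directions of the CD55 and CD59 differences on their brightest probe sets were the same after quantile normalization and after centring on array medians.

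The rest of the complement system was read from a list of 50 genes, of which 44 had a probe set with that symbol alone. Each was taken on its brightest probe set, and 36 of the 44 were dimmer than the array's median probe set. By limma 0 rose, 1 fell and 43 did not pass, and 4 reached an unadjusted p below 0.05. Of all genes read this way 3.09% were called and 20.1% reached that unadjusted p. The median difference was 0.01, against 0.00 over all genes. The gene that fell was C3AR1, the receptor for the C3a fragment that is released when C3 is cut. It read 8.81 and 8.86 on the control arrays and 8.15 and 8.17 with NeuroD2, without overlap, as was so for 50.7% of all genes read this way. The mean fell from 8.84 ± 0.04 to 8.16 ± 0.02 (SD, n = 2 each), a difference of -0.68 (standard error 0.08, adjusted p = 0.0202 by limma). When any 1 array was left out, the C3AR1 difference lay between -0.70 and -0.65.

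Among 22 other components, 0 passed by limma and 0 had an unadjusted p below 0.05, with differences from -0.27 to 0.23. They include the C1q chains, C2, C5 to C9, the lectin pathway genes and CFD, which encodes factor D, the protease that cuts factor B. Their log2 values ran from 3.31 to 6.93. Among 12 other regulators 0 passed, with 1 at an unadjusted p below 0.05. That was CLU, which encodes clusterin, a secreted inhibitor of the membrane attack complex: it read 11.48 and 11.35, then 10.99 and 11.07, a difference of -0.38 (adjusted p = 0.0864 by limma). CLU passed under 2 of 12 alternatives (lowest adjusted p = 0.0103 by limma), and its difference ranged from -0.45 to -0.27 across all 12. C1QBP, which encodes a C1q-binding protein, was also bright and differed by 0.10 (adjusted p = 0.556). Of 10 receptors only C3AR1 passed, with 3 at an unadjusted p below 0.05. C5AR1 and C5AR2, the C5a receptors, differed by 0.09 and -0.18 at levels between 3.51 and 4.66.

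**Figure D3:**
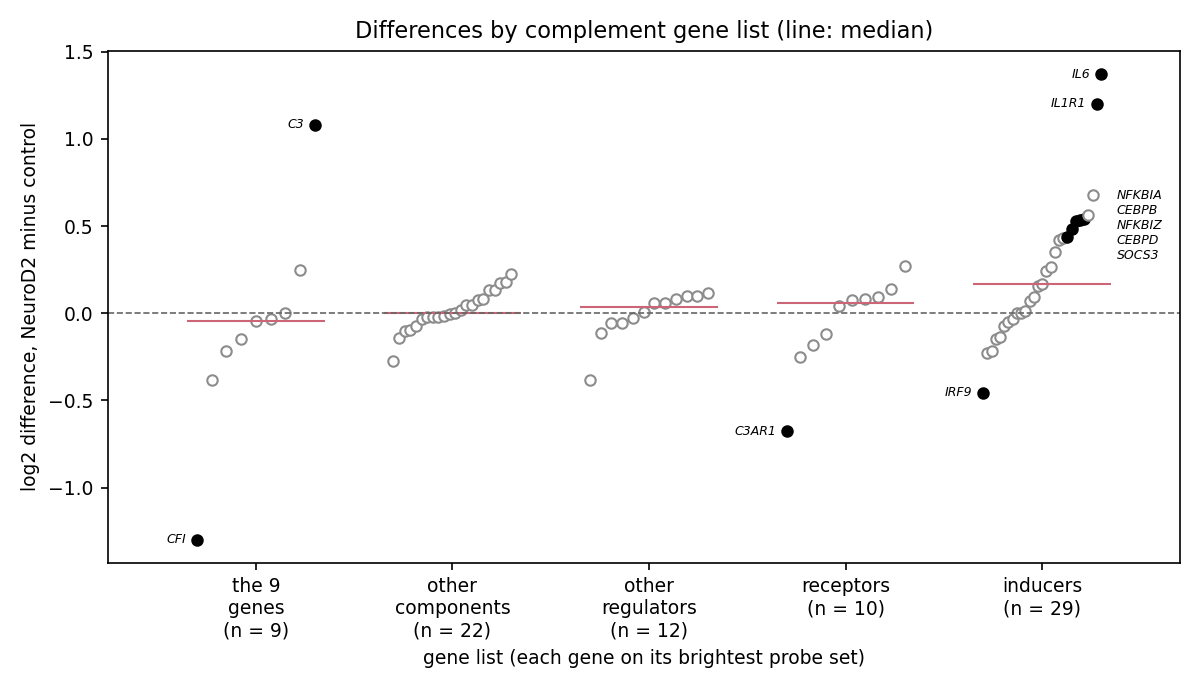
Log2 difference, NeuroD2 minus control, for each gene on its brightest probe set in 5 lists, with filled and named points at an adjusted p below 0.05 and a red line at the list's median. C3AR1 at -0.68 is the only filled point among the 44 other complement genes, and 7 of the 29 inducer genes are filled above zero with IRF9 below.

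Genes of the cytokine pathways known to act on complement transcription were read from a list of 32, of which 29 were measured. These are ligands, receptors, kinases, transcription factors and feedback inhibitors of interleukin-1, interleukin-6, interferon and NF-kB signalling. By limma 7 rose, 1 fell and 21 did not pass, where 1.24% of all genes read this way were called higher and 1.85% lower. The median difference was 0.17. The list was chosen with earlier results on inflammatory genes in these arrays known, so its direction is not independent of them. IL6, the cytokine that drives the acute phase response, rose from 8.36 and 8.40 to 9.76 and 9.75 (difference 1.37, adjusted p = 0.00389 by limma). IL1R1, the receptor for interleukin-1, rose from 8.30 and 8.54 to 9.63 and 9.61 (difference 1.20, adjusted p = 0.0108 by limma). Averaged over all probe sets of the gene, the difference was 0.69 for IL6 and 0.61 for IL1R1. CEBPB and CEBPD, transcription factors of the acute phase response, rose by 0.53 and 0.49. The NF-kB inhibitor gene NFKBIA rose by 0.54, its relative NFKBIZ by 0.53 and the cytokine feedback gene SOCS3 by 0.44. The adjusted p-values of these 5 lay between 0.0340 and 0.0473.

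IRF9, the DNA-binding part of the type I interferon complex, fell from 8.70 and 8.64 to 8.20 and 8.22 (difference -0.46, adjusted p = 0.0463 by limma), and missed the threshold when its probe sets were averaged (-0.29, adjusted p = 0.067). IL6ST, the shared receptor chain gp130, differed by 0.17 on its brightest probe set and did not pass there. All 8 of its probe sets differed upward, the other 7 by 0.27 to 0.53, of which 1 passed (adjusted p = 0.0419 by limma), and averaged over the 8 the difference was 0.42 (adjusted p = 0.0350). JAK1, a kinase of these receptors, differed by -0.15 and did not pass. IRF1, an interferon-gamma response factor, differed by 0.07. With 1 array left out, IL6 differed by 1.35 to 1.395, IL1R1 by 1.08 to 1.32 and IRF9 by -0.49 to -0.42. CEBPB, CEBPD, NFKBIA, NFKBIZ and SOCS3 then stayed between 0.43 and 0.60. With a robust variance prior CEBPB, SOCS3 and IRF9 did not pass.

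NEUROD2 itself, the gene on the vector, rose on its brightest probe set from 5.46 and 5.35 to 7.37 and 7.82 (difference 2.19, adjusted p = 0.00707 by limma), and its other 2 probe sets did not pass (-0.21 and -0.07). The probe set that rose is of the s_at kind, which can match transcripts of more than 1 gene. Markers of the labelled line were bright: 6 mesenchymal glioma markers read between 10.92 and 14.18, from FN1 to VIM, and FN1 (-0.63) and TGFBI (-0.54) fell. Of 6 astrocyte markers, from AQP4 to SLC1A3, 0 passed, and GFAP, the astrocyte filament gene, read between 6.07 and 6.35. Of 7 neuronal markers, from ELAVL4 to TUBB3, 1 fell, which was SNAP25 (-0.59). Of 10 microglia and macrophage markers 8 lay below the array's median level. CD68 was the brightest at 10.07 to 10.21, and PTPRC (CD45) was the dimmest at 2.95 to 3.53. The mean over these 10 was 5.08 to 5.18 on the control arrays and 5.16 to 5.20 on the NeuroD2 arrays, and 0 of them passed. Of 6 endothelial markers, from CLDN5 to KDR, 5 lay below the median level, as did all 6 hepatocyte markers, from APOB to APOA1, and 0 of these 12 passed. The spiked-in hybridisation controls averaged 0.39 higher on the NeuroD2 arrays, 0.22 higher without control replicate 1 and 0.56 higher without control replicate 2. The part of these markers and spikes in the differences of C3 and CFI, which ran in opposite directions, was not tested.

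**Figure D4:**
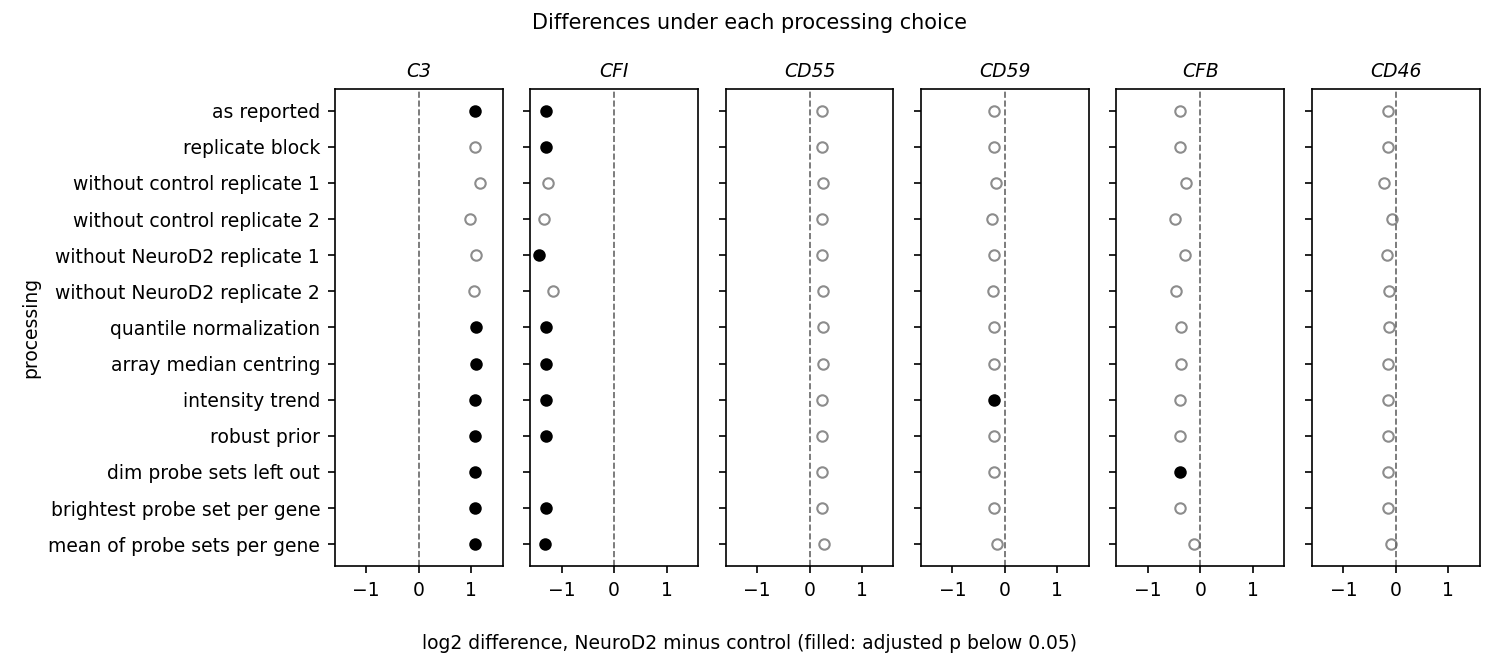
Log2 difference, NeuroD2 minus control, of the brightest probe set of 6 genes under the reported processing and 12 alternatives, filled where the adjusted p was below 0.05; CFI has no point where dim probe sets were left out. C3 stays between 0.98 and 1.18 and CFI between -1.43 and -1.16. Where an array was left out a group of 1 remains, so an open point there says nothing about stability.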

How the data were processed

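The labels' protocols give biotin-labelled RNA on human PrimeView arrays, with 2 control and 2 NeuroD2 samples. The authors deposited 1 table of 49395 probe set values, taken here as log2 from the values themselves, which ran from 2.65 to 14.3 with array medians of 5.98 to 5.99. The sources used here name no software, background correction or normalization (not given in the sources). The 102 Affymetrix control probe sets were left out, and probe sets were named through the platform annotation.

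Groups were compared by probe set with limma 3.58.1 in R 4.3.3 (lmFit and eBayes, no trend, two-sided, 2 residual and 3.87 prior degrees of freedom), with Benjamini-Hochberg adjustment over 49293 probe sets and a threshold of 0.05. Differences are NeuroD2 minus control. Genes outside the 9 were read on the probe set with the highest mean. Gaps between genes were tested with scipy 1.17.1. Named genes were every probe set of the 9, NEUROD2, list genes past the threshold or among the 3 brightest of a list, and the brightest and dimmest cell markers. IRF1, C5AR1, C5AR2, CFD, GFAP, TGFBI and SNAP25 were added after their values were seen. The genes and lists were chosen with earlier results of these data known. In simulated data of this design, with 100 of 49293 probe sets changed at each size, 62.2% of those changed by 1 on the log2 scale and 0.20% of those changed by 0.5 passed. Far fewer were changed there than the 1416 called in the real data. The unadjusted p needed to pass depends on that number, so these shares do not carry over to the real data. The number of arrays limits the precision. Alternatives were a replicate block, leaving out each array, quantile normalization, median centring, an intensity trend, a robust prior, leaving out dim probe sets, and 1 value a gene (brightest or mean).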

Additional observations from a re-analysis of the deposited data

How the results depend on the processing

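Leaving out each array in turn leaves a group of 1, whose spread is taken from the other group, and the lost calls say nothing about stability. It gave 0 to 1 calls among the 37 probe sets (3 as reported), 0 to 45 over the array (1416 as reported), 0 and 0 among other complement genes and 0 to 1 among inducers, with the median of the 37 between -0.08 and -0.03. The cause was not tested for the settings that follow. An intensity trend gave 8 calls among the 37, 4041 over the array, 2 other complement genes and 13 inducers. Leaving out dim probe sets gave 4086 over the array and 2 other complement genes, with fewer probe sets tested. A robust prior gave 5 inducers, the mean of probe sets 13, and the brightest probe set per gene 864 genes over the array.

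The labels do not say whether same-numbered arrays were paired. Deviations of the same-numbered arrays correlated at 0.08 over all probe sets, which cannot settle it. With the replicate block, which leaves 1 residual degree of freedom, calls were 2 among the 37, both CFI, 90 over the array, 0 other complement genes (5 at an unadjusted p below 0.05) and 1 inducer (IL6). C3 (adjusted p = 0.0552) and C3AR1 (0.0682) did not pass.

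Of the called probe sets of the 9 genes, NEUROD2 and the other genes named as called on their brightest probe set, 0 changed direction under any alternative run. Of results near zero, CD46 11742219_a_at read 0.0056 after quantile normalization and 0.0012 after median centring, CD59 11763244_at -0.0057 after quantile normalization and SERPING1 11751845_x_at 0.0051 after median centring. Without single arrays the probe sets that turned were C1R 11742699_a_at (-0.10 to 0.0081), CFB 11744331_a_at (-0.44 to 0.0081) and 11749355_a_at (-0.36 to 0.011), CD46 11720595_a_at (-0.20 to 0.038), 11742219_a_at (-0.069 to 0.061), 11742220_x_at (-0.065 to 0.14), 11751532_x_at (-0.062 to 0.11), 11751549_a_at (-0.19 to 0.073) and 11755715_x_at (-0.0055 to 0.087), CD55 11760294_a_at (-0.037 to 0.40), CD59 11763244_at (-0.20 to 0.24) and SERPING1 11715368_a_at (-0.078 to 0.020) and 11751845_x_at (-0.11 to 0.11).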

Other observations

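Genes that lie beside the 9 in the RefSeq order were read on their brightest probe sets, taking the 2 nearest measured genes on each side and leaving out the 9 themselves. Of 31 such neighbours, 0 rose, 2 fell and 29 did not pass by limma, where 3.09% of all genes read this way were called. LPCAT3, a phospholipid acyltransferase gene beside C1S, fell from 8.96 ± 0.02 to 8.23 ± 0.02 (log2, SD, n = 2 each; difference -0.74, adjusted p = 0.0169), while C1S, C1R and C1RL next to it differed by -0.03, -0.04 and -0.01. LMO2, a transcriptional cofactor gene close to CD59, fell from 8.48 ± 0.12 to 7.86 ± 0.05 (difference -0.62, adjusted p = 0.0352). The LPCAT3 probe set is of the x_at kind and the LMO2 probe set of the s_at kind, which can match other transcripts. Across 12 alternatives the difference ranged from -0.76 to -0.46 for LPCAT3 and from -0.71 to -0.36 for LMO2. The neighbours of C3 (CD70, TNFSF14, GPR108 and TRIP10) and of CFI (CASP6, PLA2G12A, GAR1 and RRH) did not pass, with differences from -0.05 to 0.27 and from -0.32 to 0.27.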
